A study of Mus musculus with 8 samples.

Results

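CA3 pyramidal cells are the principal neurons of hippocampal field CA3. They were taken here as the nuclei to which the authors' deposited annotation gave the cell type CA3, and there were 2475 of them among 29425 nuclei. Single nucleus RNAseq (snRNAseq) was performed with the 10x 3' v3 kit on 2 mutant and 2 control mice, with 365 and 1085 CA3 nuclei in mutant replicates 1 and 2 and 467 and 558 in control replicates 1 and 2. Bulk RNAseq of the hippocampus was available for 2 libraries of each genotype. Each library came from both hippocampi of a single 12-week-old mouse that the methods describe as male. Mutants were *Gfap-Cre;Wls* fl/- and controls *Gfap-Cre;Wls* fl/+, so that the controls carry Cre as well and keep 1 intact copy of *Wls*, which encodes a protein required for the secretion of Wnts. Cre is driven by the *Gfap* promoter, which is active in a part of the neural progenitors of the forebrain, and not by a promoter of CA3 cells. The annotation held few nuclei of dentate granule cells (DGCs) in the mutants.

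CA3 pyramidal cells receive the axons of the DGCs, the mossy fibers, on the part of the apical dendrite nearest the cell body. They also excite each other through recurrent collaterals and excite CA1 through the Schaffer collaterals. The mossy fiber synapse is known for its kainate receptors, and its adhesion molecules hold large terminals against complex spines, the thorny excrescences. CA3 cells differ along the transverse and the dorsoventral axis of the hippocampus in their inputs and in their transcripts.

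The identity of the nuclei was examined with 4 CA3 markers, in UMIs (unique molecular identifiers, 1 for each captured transcript) of the nuclei of a type and mouse, scaled to the same fixed total in each (CPM). *Grik4*, which encodes a kainate receptor subunit, was at 1098 and 1525 CPM in CA3 nuclei of mutant replicates 1 and 2 and at 1264 and 1472 CPM in those of the controls. Mossy cells of the hilus, the next type in the controls, had 589 and 636.5 CPM. *Nectin3*, which encodes an adhesion molecule, was at 305 and 243 CPM in mutant and 343 and 304 CPM in control CA3 nuclei, and at 121 to 163 CPM in mossy cells. *Grik4* and *Nectin3* were thus higher in CA3 than in each of the other 17 types with at least 10 nuclei in every mouse, in all 4 mice. *Cpne4*, a copine gene, was at 750.0 to 955 CPM in CA3 and was higher in CA2 nuclei (1258 to 1484 CPM), in mossy cells (954 to 1255 CPM) and in the type annotated excitatory neurons 13 (1403 to 1847 CPM). *Rnf182*, a ubiquitin ligase gene, was at 231 and 329 CPM in mutant and 561 and 506 CPM in control CA3 nuclei, and mossy cells had more of it in every mouse. The 4 markers together therefore separated CA3 from CA1 and DGCs, *Rnf182* also separated it from CA2, and of the 4 only *Grik4* and *Nectin3* separated it from both CA2 and mossy cells. The annotation comes from clustering of the same counts, and differences between types are given as a description with no test.

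**Figure D1:**
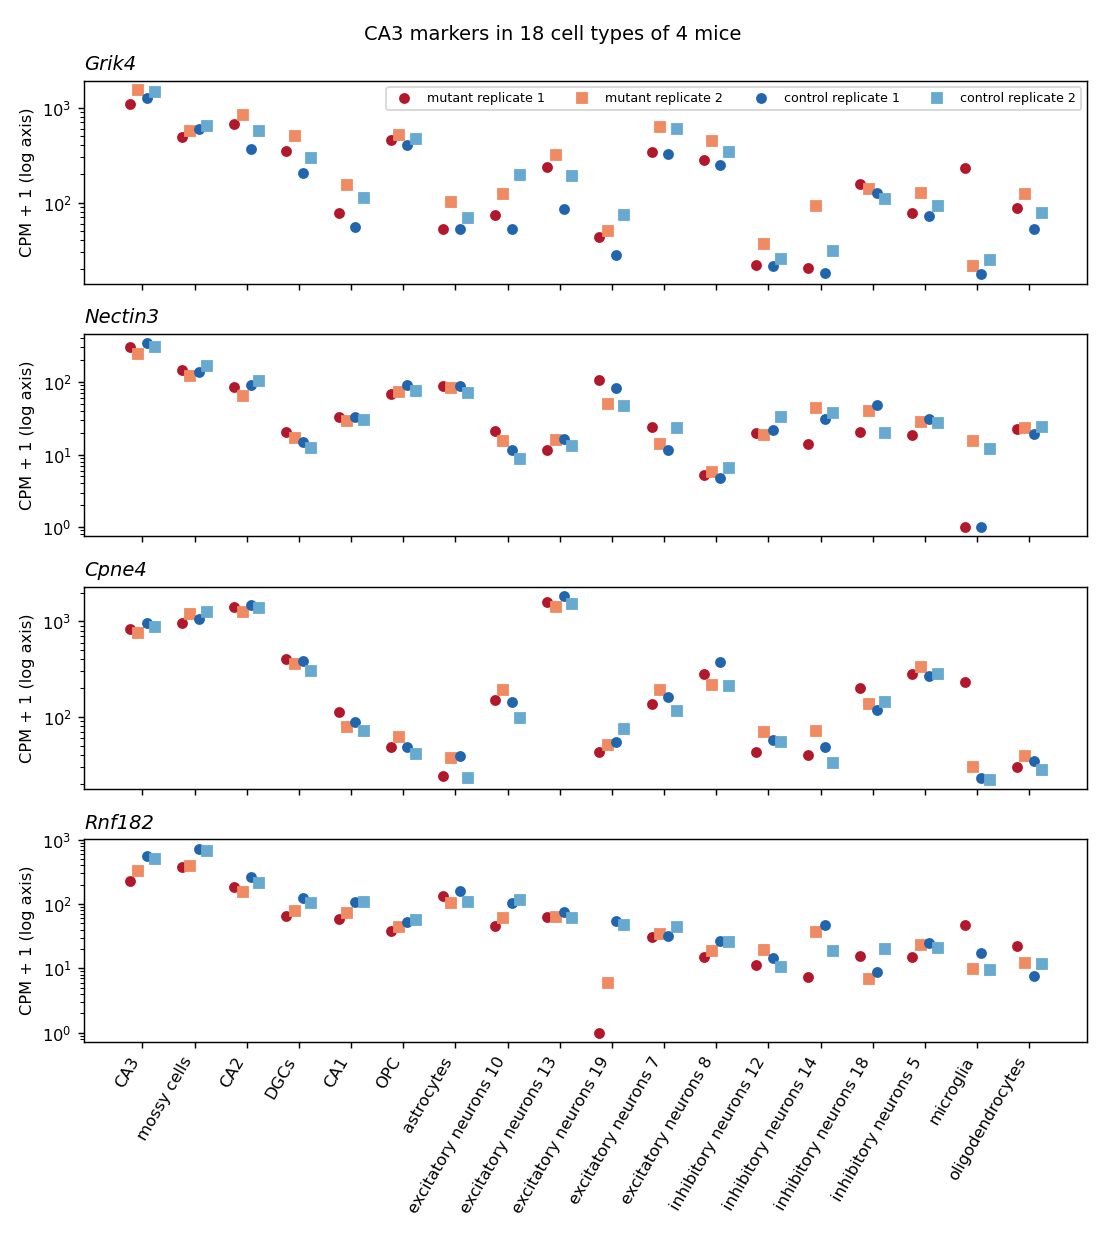
Levels of the 4 CA3 markers (CPM + 1, log axis) in 18 cell types, with 1 point per mouse (circles replicate 1, squares replicate 2; red mutants, blue controls). *Grik4* and *Nectin3* were highest in CA3 in every mouse, whereas *Cpne4* was higher in CA2, mossy cells and excitatory neurons 13 and *Rnf182* in mossy cells.

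The libraries held 5304 to 10460 nuclei and 26307081 to 76486132 UMIs. Pairs of libraries shared 8 to 21 cell barcodes. *Wls* was at 2.10 and 4.95 CPM in mutant and 4.18 and 6.54 CPM in control CA3 nuclei, and the ranges overlapped, whereas CA1 nuclei had 3.94 and 4.89 CPM against 16.5 and 14.8 CPM. At full depth *Wls* was in 0.0% and 0.989% of mutant and 12.1% and 18.2% of control oligodendrocytes. In bulk RNAseq it was at 3.67 and 6.86 CPM in mutants and 13.2 and 13.0 CPM in controls. CA3 nuclei held 6 and 68 UMIs of it in mutants and 21 and 62 in controls. Whether the counted 3' ends lie in the floxed part of *Wls* is not given in the sources used here. The few UMIs in CA3 nuclei do not check the deletion there. *Xist*, transcribed in females, was at 1.68 to 3.19 CPM in CA3 nuclei of the 4 mice, and Y-linked *Ddx3y* at 24.6 to 42.0 CPM, as in males. In bulk RNAseq *Xist* was at 1.44 and 1.05 CPM in replicate 1 of mutant and control and at 230.1 and 518 CPM in replicate 2, with *Ddx3y* at 54.5 and 58.3 CPM and at 0.352 and 0.343 CPM. Both bulk libraries numbered 2 thus go against their description as male.

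Transcripts of other cell types in the CA3 nuclei moved with genotype in part. The 8 DGC markers summed to 20.7 and 27.3 CPM in mutant and 46.6 and 44.9 CPM in control CA3 nuclei, against 660.4 and 673 CPM in the DGCs of the controls. *Prox1*, the defining transcription factor of DGCs, was at 1.05 and 4.30 CPM in mutant and 13.9 and 11.9 CPM in control CA3 nuclei, while *Dsp* and *Tdo2* were too low to be tested. The 6 CA1 markers summed to 200.3 and 168 CPM in mutants and 183 and 152 CPM in controls, and the 6 astrocyte markers to 351 and 350.3 CPM against 443 and 432 CPM. The choroid plexus markers summed to 48.3 and 83.2 CPM in mutants and 45.8 and 38.9 CPM in controls. The 6 oligodendrocyte markers summed to 108 to 157 CPM and the 4 inhibitory neuron markers to 30.1 to 41.3 CPM, and for both the genotypes overlapped. The part of these transcripts in the differences between genotypes was not tested beyond the removal of nuclei that held them. Scrublet, which marks probable doublets, marked 156, 41 and 55 CA3 nuclei of mutant replicate 2 and control replicates 1 and 2 and none of mutant replicate 1, where it marked 2 of 5304 nuclei and is taken not to have worked.

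Few genes were highest in CA3. Among 3410 genes of at least 50 CPM in control CA3 nuclei, 10 exceeded the next type by a ratio above 1.5, and for 4 of them that type was mossy cells. The largest ratios belonged to *9530036O11Rik* (2.66), annotated as an antisense transcript, *Grik4* (2.23), *Raver2* (2.19), which encodes an RNA-binding protein, and *Nectin3* (2.16). *Lpl*, the gene of lipoprotein lipase, and *Socs2*, a suppressor of cytokine signaling, had ratios of 1.69 and 1.68. Others were *Gm36975*, *4921511C10Rik* and *2010111I01Rik*, at 1.65, 1.60 and 1.58. The nearest genes under the limit were *Madd* (1.42), *Gm10851* (1.39), *Tead1* (1.38), *Rapgef2* (1.38) and *Car4* (1.36). These genes were chosen for this pattern, so that their ratios are a description.

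The proportion of CA3 nuclei did not separate the genotypes. CA3 nuclei made up 6.88% (exact 95% binomial interval 6.21 to 7.60) and 10.4% (9.79 to 11.0) of the nuclei of mutant replicates 1 and 2 and 7.22% (6.60 to 7.88) and 7.76% (7.15 to 8.40) of those of the controls. The 2 mutants lay on either side of the controls. The log2 fold change was 0.20 with a standard error (SE) of 0.55 and an adjusted p of 0.812 over 18 types by the quasi-likelihood test of edgeR, Benjamini-Hochberg adjusted. The total contains the DGCs, of which there were 90 and 463 in mutants and 2336 and 2007 in controls. Without them the CA3 proportions were 7.0% and 10.9% against 11.3% and 10.8%, and the log2 fold change turned to -0.30 (SE 0.54). Among nuclei of CA1, CA2 and CA3, those of CA3 were 18.5% and 27.6% in mutants and 26.3% and 28.8% in controls, with a log2 fold change of -0.25. Mutant replicate 1 had the lowest CA3 proportion by each total.

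The median CA3 nucleus held 6790.0 and 11716 UMIs in mutants and 10123 and 15192.5 UMIs in controls. Depth differed more between mice of a genotype than between the genotypes' means, and CA1 nuclei of the same mice followed it, since the ratio of the CA3 to the CA1 median was 1.29 and 1.29 in mutants and 1.23 and 1.249 in controls. Summed CA3 profiles correlated closely, with R² of log10(CPM + 1) of 0.971 between mutants, 0.974 between controls and 0.959 to 0.981 between genotypes. The highest pair was mutant replicate 2 with control replicate 2, so that the genotypes did not form separate clusters by this measure. These were also the libraries with the most CA3 UMIs, 13680657 and 9234170, against 2939933 in mutant replicate 1 and 5087100 in control replicate 1. The part of depth in the R² was not tested.

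UMIs were next summed per mouse over CA3 nuclei and compared between genotypes. In this and the following comparisons CPM values are scaled by the TMM method of edgeR. Among the transcripts of lowest p, all lower in mutants, were those of a neuropeptide, an axon guidance molecule and a protein kinase, but none passed the test. Of 15040 genes tested, the quasi-likelihood test of edgeR, Benjamini-Hochberg adjusted, called 0 higher and 0 lower in mutants (0.0% each) at FDR below 0.05 and a fold change (FC) above 2. At an unadjusted p below 0.05, 319 genes were higher and 155 lower with that FC. DESeq2, a test with another estimate of the spread, called 40 genes higher (0.266%) and 45 lower (0.299%). Of all genes tested, 22.4% had both mutants above both controls and 21.8% both below. With 2 mice per genotype the smallest two-sided p of an exact permutation test is 0.33, and the adjusted p-values rest on a spread shared among genes.

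*Sema5b*, which encodes a transmembrane semaphorin, was at 35.4 and 46.8 CPM in mutants and 157 and 124 CPM in controls. The genotypes did not overlap (log2 fold change -1.75, SE 0.20, adjusted p = 0.0531 by the quasi-likelihood test of edgeR, Benjamini-Hochberg adjusted), and DESeq2 called it. After each nucleus was thinned to 1500 UMIs, *Sema5b* was in 5.21% and 7.47% of mutant and 19.7% and 15.2% of control CA3 nuclei, and in at most 1.65% of oligodendrocytes, which have a median of 1727 to 2339 UMIs. *Prkcd*, the gene of protein kinase C delta, was at 4.55 and 5.68 CPM against 30.1 and 21.5 CPM, again without overlap (log2 fold change -2.26, SE 0.28, adjusted p = 0.0608 by the same test). After thinning, *Prkcd* was in 1.10% and 0.737% of mutant and 4.93% and 4.66% of control CA3 nuclei. Its shares in oligodendrocytes, 0.431% to 1.85%, spanned the mutant values and lay under the control ones. Oligodendrocyte nuclei hold fewer UMIs than CA3 nuclei, so their thinned shares do not set the level of free RNA in CA3 nuclei.

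A further 2 genes of low p were also lower in both mutants in oligodendrocytes. *Cck*, the gene of the neuropeptide cholecystokinin, was at 68.3 and 63.0 CPM in mutants and 174 and 182 CPM in controls (log2 fold change -1.45, SE 0.16, adjusted p = 0.0526 by the quasi-likelihood test of edgeR, Benjamini-Hochberg adjusted). After thinning, *Cck* was in 11.2% and 8.66% of mutant and 25.3% and 22.6% of control CA3 nuclei, but also in 16.4% and 18.3% of mutant and 22.0% and 25.8% of control oligodendrocytes, a type that should lack it. The CA3 shares of *Cck* after thinning were thus near or under those of oligodendrocytes. At full depth *Cck* was in 37.3% and 48.8% of mutant and 76.2% and 84.6% of control CA3 nuclei. In oligodendrocytes it was then in 16.4% and 22.3% against 25.4% and 36.4%. *Ttr*, a choroid plexus marker, was after thinning in 0.0% and 4.79% of mutant and 1.93% and 0.538% of control CA3 nuclei. Its shares in oligodendrocytes were 0.0% and 31.0% against 10.8% and 2.24%. The part of free RNA in the CA3 values of *Cck* was not tested. *Ubb*, a polyubiquitin gene transcribed in most cells and close in sequence to other ubiquitin genes, was at 31.5 and 31.0 CPM against 83.3 and 97.2 CPM (log2 fold change -1.53, SE 0.17). After thinning, *Ubb* was in 6.03% and 4.70% of mutant and 12.2% and 16.1% of control CA3 nuclei, and in 6.85% and 16.6% of mutant and 35.8% and 43.1% of control oligodendrocytes. Both types had the lower shares in the mutants, and in CA1 nuclei *Ubb* was at 39.5 and 32.2 CPM in mutants and 79.1 and 98.5 CPM in controls.

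The 5 genes of lowest p among those higher in mutants were *Gm2164*, *Mpped1*, *Myo16*, *Tenm3* and *Pcdh15*. *Gm2164*, annotated as an antisense transcript, was at 38.5 and 36.3 CPM in mutants and 12.8 and 15.3 CPM in controls (log2 fold change 1.40, SE 0.20). *Mpped1*, one of the CA1 markers, was at 20.7 and 25.6 CPM against 8.37 and 8.76 CPM (1.45, SE 0.23). *Tenm3*, which encodes a teneurin that guides the choice of synaptic partners in the hippocampus, was at 149.5 and 153 CPM against 57.4 and 77.9 CPM (1.16, SE 0.19). *Myo16*, an unconventional myosin gene, was at 85.4 and 84.0 CPM against 40.2 and 43.9 CPM, and *Pcdh15*, a protocadherin gene, at 163 and 162 CPM against 72.5 and 86.6 CPM. In each the mutants lay above the controls, with adjusted p between 0.125 and 0.145 by the quasi-likelihood test of edgeR, Benjamini-Hochberg adjusted. All 5 passed in DESeq2 with FC above 2. *Gm2164* was at 547.6 to 664 CPM in CA1 nuclei, far above CA3, and the part of CA1 transcripts in the values of *Gm2164* and *Mpped1* was not tested. Leaving out nuclei cannot decide it for *Mpped1*, since the CA1 markers that chose those nuclei were *Mpped1* itself, *Fibcd1* and *Wfs1*. Without CA3 nuclei that held CA1 markers (13 and 88 in mutants, 11 and 30 in controls) edgeR again called 0 genes, with 305 higher and 161 lower at an unadjusted p below 0.05 and FC above 2. Where nuclei with markers of other types were left out as well, the log2 fold change was 1.01 for *Myo16*. It was 0.86 for *Tenm3* and 0.90 for *Pcdh15*, under an FC of 2.

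**Figure D2:**
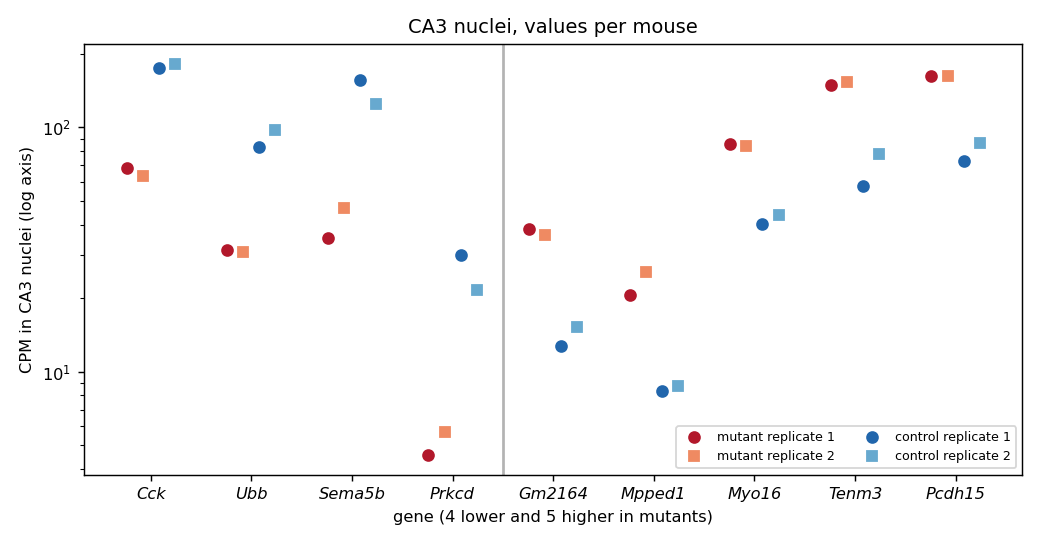
Levels in CA3 nuclei (CPM, log axis) of 4 genes of low p lower in mutants (left of the line) and 5 higher in mutants (right), with 1 point per mouse (circles replicate 1, squares replicate 2; red mutants, blue controls). In each gene both mutants lie outside the range of the controls, and *Prkcd* shows the widest gap of the 9.

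The number of calls depended on which library was left out. Without mutant replicate 1 or 2 it was 100 and 17 higher with 72 and 18 lower, and without control replicate 1 or 2 it was 35 and 443 higher with 94 and 182 lower, where the lone library of a genotype is assumed to vary like the other genotype. Among the CA3 markers, *Rnf182* had the largest difference (log2 fold change -0.90, SE 0.19, adjusted p = 0.165 by the quasi-likelihood test of edgeR, Benjamini-Hochberg adjusted, and 0.00553 by DESeq2). It was lower in both mutants also in CA1 nuclei (58.1 and 72.9 against 106 and 105 CPM), CA2 nuclei and mossy cells. *Grik4*, *Nectin3* and *Cpne4* overlapped between genotypes, with log2 fold changes of -0.03, -0.22 and -0.17.

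To ask which differences were larger in CA3 than in a neighbouring type, the genotype difference in CA3 was compared with that in CA1 of the same mice, through the interaction of cell type and genotype with the mouse as a term. Of 16769 genes, 5 (0.0298%) had a more positive and 13 (0.0775%) a more negative difference in CA3 at FDR below 0.05 and FC above 2, by the quasi-likelihood test of edgeR, Benjamini-Hochberg adjusted. DESeq2 called 11 and 8. Large negative interactions belonged to *Ptpn14* (log2 -2.27, SE 0.34, adjusted p = 0.0298), *Cpne9* (-1.81, SE 0.25), *Sema5b* (-1.76, SE 0.27) and *Camk2d* (-1.41, SE 0.24). *Ptpn14* encodes a tyrosine phosphatase, *Cpne9* a copine and *Camk2d* the delta subunit of Ca2+/calmodulin-dependent kinase II.

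In CA3 nuclei *Ptpn14* was at 15.4 and 14.4 CPM in mutants and 34.2 and 31.2 CPM in controls, and *Cpne9* at 22.0 and 23.1 CPM against 65.4 and 47.1 CPM. In CA1 nuclei both were low in every mouse, at 1.04 to 4.64 CPM for *Ptpn14* and 2.56 to 4.26 CPM for *Cpne9*. *Camk2d* went opposite ways, at 26.5 and 26.4 CPM against 55.3 and 37.3 CPM in CA3 and at 37.7 and 39.4 CPM against 21.2 and 27.5 CPM in CA1. *Sema5b* in CA1 was at 9.64 and 15.4 CPM in mutants and 8.99 and 15.5 CPM in controls, without a difference of the size seen in CA3.

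The largest positive interactions were those of *Tspan18*, a tetraspanin gene (log2 1.71, SE 0.28), *Bcl2*, which encodes an inhibitor of apoptosis (1.20, SE 0.19), *Gm2164* (1.20, SE 0.15), *Car2*, the gene of carbonic anhydrase 2 (1.17, SE 0.18), and *Gm26905* (1.12, SE 0.17). *Tspan18* in CA3 was at 68.4 and 154 CPM in mutants and 32.2 and 80.9 CPM in controls, so that CA3 values overlapped, while the low values of CA1 were 1.42 and 5.06 against 5.21 and 6.48 CPM. *Bcl2* was at 7.33 and 12.3 against 7.16 and 5.86 CPM in CA3 and at 17.2 and 30.5 against 42.4 and 31.9 CPM in CA1. *Car2* was likewise at 38.4 and 55.3 against 33.4 and 38.9 CPM in CA3, where the mutants overlap the controls, and at 18.7 and 33.2 against 53.4 and 41.7 CPM in CA1. *Gm26905*, a lincRNA gene that lies within *Galntl6* on the opposite strand of chromosome 8, was at 145 and 207 against 50.7 and 86.7 CPM in CA3. Whether the counting used strand is not given in the sources used here, so its reads and those of *Galntl6* may not be told apart.

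The interactions rested in large part on mutant replicate 2, which had 1085 CA3 nuclei against the 365 of mutant replicate 1. Without it 3 of the 18 calls passed (*Gm2164*, *Ephb1*, which encodes an ephrin receptor, and *C1ql3*, which encodes a secreted synaptic protein, the last 2 chosen after their values were seen). *Ptpn14* then had an adjusted p of 0.253 and *Sema5b* one of 0.316. Without mutant replicate 1, control replicate 1 or control replicate 2, the calls that passed were 18, 17 and 18 of the 18.

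**Figure D3:**
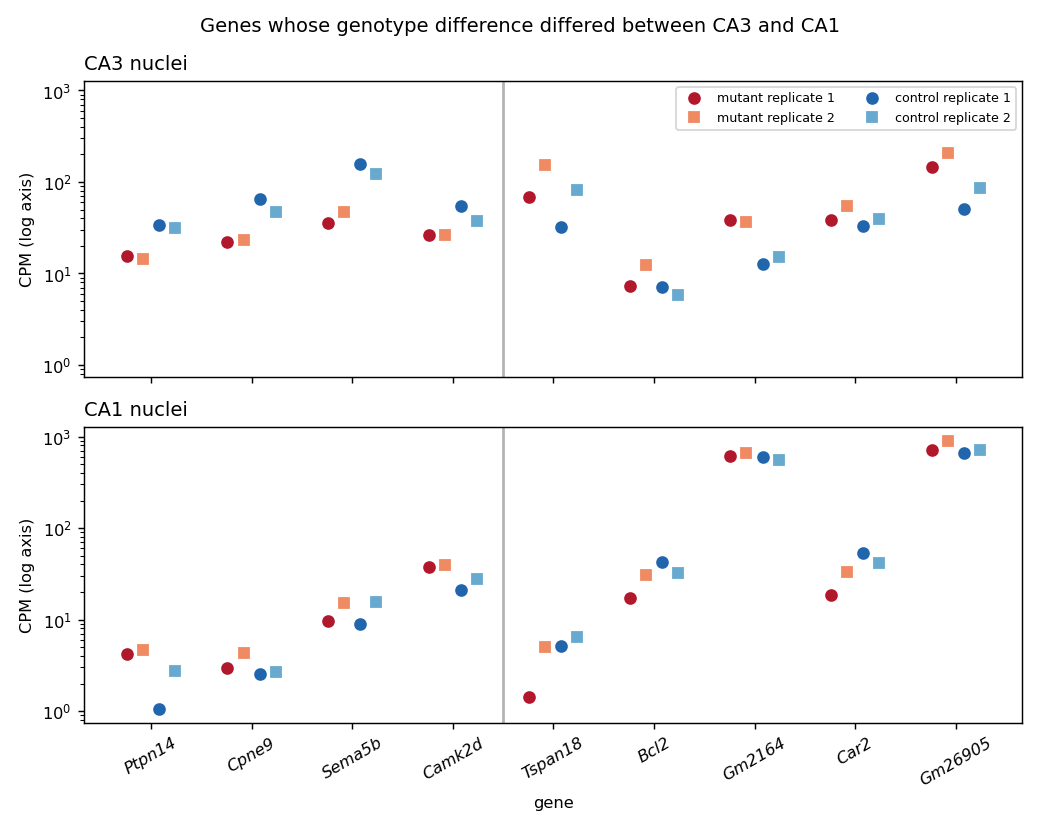
Levels (CPM, log axis) in CA3 nuclei (upper panel) and CA1 nuclei (lower panel) of 4 large negative (left of the line) and the 5 largest positive (right) interactions of cell type and genotype, with 1 point per mouse (circles replicate 1, squares replicate 2; red mutants, blue controls). *Ptpn14*, *Cpne9* and *Sema5b* separate the genotypes in CA3, where they are higher than in CA1.

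Against CA2 nuclei, 11 of 13058 genes (0.0842%) had a more positive and 5 (0.0383%) a more negative genotype difference in CA3, by the quasi-likelihood test of edgeR, Benjamini-Hochberg adjusted. *Trpm3*, a cation channel gene, was at 277 and 349 CPM in mutant and 183 and 206 CPM in control CA3 nuclei but at 199 and 437 CPM against 737 and 629.6 CPM in CA2 (log2 interaction 1.77, SE 0.19). *Erbb4*, the gene of a neuregulin receptor, was at 80.2 and 115 against 88.3 and 62.7 CPM in CA3 and at 162 and 200.5 against 41.6 and 27.5 CPM in CA2 (-2.01, SE 0.20). In both, the genotypes separated in CA2 nuclei, and the call passed with each library left out. The others named by size were *Armc3* (2.55), *Btk* (2.29), *Stxbp6* (1.89), *Gm32647* (1.497), *Prex1* (-2.84), *Tmtc2* (-2.38), *Slit2* (-1.34) and *4921539H07Rik* (-1.14). Only 3 of the 16 calls passed with every library left out in turn, and DESeq2 called 4 positive and 0 negative, with 38 negative at an unadjusted p below 0.05 and FC above 2. CA2 had 65 and 166 nuclei in mutants and 101 and 83 in controls, which limits these values.

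Against mossy cells, which DGC axons also reach, 45 of 12884 genes (0.349%) had a more positive and 35 (0.272%) a more negative difference in CA3 by the same test, and DESeq2 called 9 and 7. *Sema5b* was among the negative ones (log2 interaction -3.27, SE 0.41). Mossy cells had 25.5 and 57.1 CPM of it in mutants and 9.55 and 21.0 CPM in controls, opposite to CA3. The other large negative interactions were those of *Simc1* (-3.32), *Dock10* (-3.22), *Neat1* (-3.09) and *Slc4a4* (-2.59), and the large positive ones those of *Btk* (3.61), *Gm45341* (3.42), *Plch1* (3.24), *Gm16161* (2.98) and *Osbpl3* (2.79). Mossy cells numbered 27, 89, 38 and 32 nuclei, and 9 of the 80 calls passed with every library left out in turn. Without mutant replicate 2, 16 passed, and *Sema5b* had an adjusted p of 0.306 by the quasi-likelihood test of edgeR, Benjamini-Hochberg adjusted.

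Heterogeneity within CA3 was described through the first principal component of 858 control CA3 nuclei free of markers of other types, over 11638 genes. This axis was chosen after values were seen and is a description with no test. It held 1.09% of the variance, and its loadings correlated with those of the first component of mutant replicates 1 and 2 alone at r = 0.645 and 0.792 across genes and of control replicates 1 and 2 alone at 0.676 and 0.972. At one end stood *Trps1*, *Cadm2*, *Fam19a1*, *Rph3a*, *Ctnna2*, *Hs6st3*, *Sema5b* and *Epha3*, among 20 genes, and at the other *Dab1*, which encodes the adaptor of reelin signaling, *Gabrg3*, *Pcdh17*, *St18*, *Galntl6* and *Sox5*, likewise among 20. The ends are named here after *Sema5b* and *Gabrg3*. *Cck*, *Cpne9* and *Prkcd* ranked 50, 65 and 84 from the *Sema5b* end, and *Ubb* lay near the middle at 4697.

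Nuclei of mutants lay nearer the *Gabrg3* end. In nuclei thinned to 1500 UMIs, the median share of *Sema5b*-end UMIs among the UMIs of both ends was 42.9% and 32.4% in mutants and 55.7% and 48.8% in controls. Nuclei with a share above 50% were 35.3% (exact 95% interval 30.4 to 40.5) and 22.4% (20.0 to 25.0) of those of mutants and 66.0% (61.5 to 70.2) and 45.9% (41.7 to 50.1) of those of controls, and 142, 321, 214 and 209 nuclei lay between 40% and 60%. Both mutants were below both controls, and the 2 mice of a genotype differed from each other by more than mutant replicate 1 differed from control replicate 2. The share is a range and not a cell type. Whether the nuclei of the mutants come from other parts of CA3 or have other levels in the same parts cannot be told apart here.

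**Figure D4:**
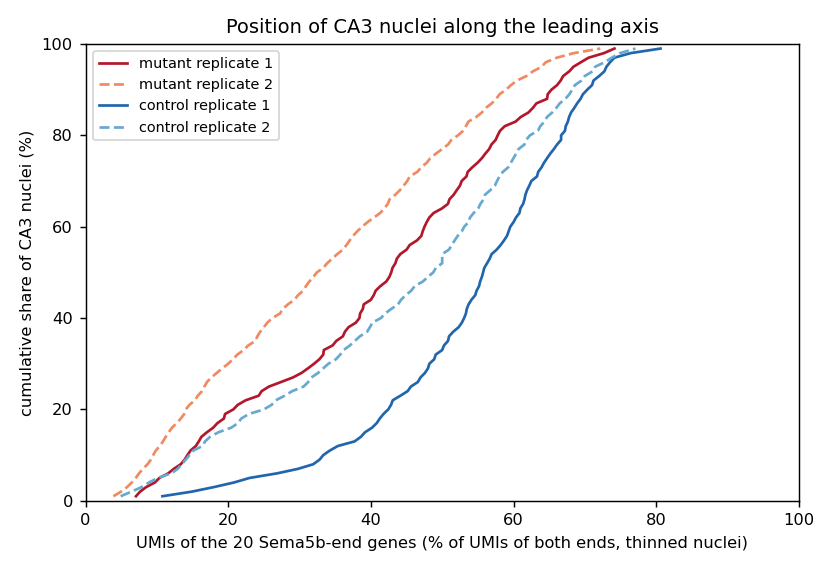
Cumulative share of CA3 nuclei (y axis, percent) by the share of *Sema5b*-end UMIs among the UMIs of both ends of the axis (x axis, percent), in nuclei thinned to 1500 UMIs, with 1 line per mouse (red mutants, blue controls; solid replicate 1, dashed replicate 2). The lines of the mutants lie to the left, with medians of 42.9% and 32.4% against 55.7% and 48.8%.

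The ends differed in size. Of the 20 *Sema5b*-end genes, 11 were lower in both mutants and 0 higher, with a median log2 fold change of -0.40, where 25.5% of all genes on the axis were lower in both. Of the 20 *Gabrg3*-end genes, 19 were higher in both mutants, with a median of 0.87, where 19.6% of all genes on the axis were higher in both. The genes of an end were chosen because they vary together among control nuclei. Their counts are thus not independent of each other or of the median shares above, which use the same genes. DESeq2 called 4 genes of each end, where it called 0.266% of all genes higher and 0.299% lower, and edgeR none. *Galntl6* and *Gm26905*, whose reads may not be told apart, both counted at the *Gabrg3* end, and *Gm26905* was 1 of the 4 called there. *Rph3a*, the gene of the synaptic vesicle protein rabphilin, was at 82.99 and 80.04 CPM in mutants and 170.2 and 159 CPM in controls (log2 fold change -1.01, SE 0.16), without overlap. *Gabrg3*, which encodes a GABA-A receptor subunit, was at 388 and 442 CPM against 156 and 244 CPM (1.05, SE 0.22), also without overlap. *Trps1*, at the very end, overlapped (1087 and 763 against 1452 and 1017 CPM). The medians kept their sign with each library left out, from -0.64 to -0.18 at the *Sema5b* end and from 0.57 to 1.14 at the *Gabrg3* end.

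Members of pathways of the CA3 synapse are described by groups, in which edgeR called 0 genes in every list and the counts are read against the 22.4% of all genes above and 21.8% below in both mutants. Of 7 kainate receptor genes tested, 3 were higher in both mutants and 2 lower. *Grik1* was at 28.0 and 29.8 CPM in mutants and 13.0 and 11.9 CPM in controls (log2 fold change 1.23, SE 0.20) and was called by DESeq2. *Grik2* and *Grik4*, the abundant subunits, had log2 fold changes of 0.25 (SE 0.19) and -0.03 (SE 0.18), and the auxiliary subunit gene *Neto1* one of 0.16 (SE 0.16). None of these 3 passed either test.

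Of 14 AMPA receptor genes, 7 were higher in both mutants and 2 lower, with a median of 0.28. *Gria1*, a pore subunit, was at 2910 and 3485 CPM in mutants and 2366 and 2563 CPM in controls, without overlap (log2 fold change 0.38, SE 0.16), and *Gria2* overlapped (0.20, SE 0.23). The auxiliary subunit gene *Shisa6* was at 1168 and 1290.1 against 947 and 1106 CPM. Of 6 NMDA receptor genes 4 were higher in both mutants, among them *Grin2a* (0.24, SE 0.16) and *Grin2b* (0.21, SE 0.16), while the obligatory subunit gene *Grin1* overlapped (0.06, SE 0.17). Of 7 metabotropic glutamate receptor genes 2 were higher and 1 lower, and the abundant *Grm7* and *Grm5* overlapped with log2 fold changes of -0.07 and 0.19. None of these genes passed the test.

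Among 20 genes of the postsynaptic scaffold, 4 were higher in both mutants and 2 lower. The abundant *Dlg2*, *Dlgap1* and *Dlgap2* overlapped between genotypes, with log2 fold changes of 0.22, 0.05 and 0.06. Among 36 genes of synaptic adhesion, 12 were higher in both mutants and 2 lower, with a median of 0.18. *Tenm2*, a teneurin gene, was at 4344 and 4633 CPM against 3145 and 3244 CPM (0.49, SE 0.15), *Nlgn1*, the gene of neuroligin 1, at 5014 and 4384 against 4253 and 3777 CPM (0.23, SE 0.16), and *Nrxn3* overlapped (-0.09, SE 0.17). Among 19 genes of axon guidance receptors, semaphorins and neurotrophin receptors, 7 were higher and 2 lower. DESeq2 called 1, *Sema6a*, which encodes a semaphorin, at 47.6 and 38.7 against 16.9 and 23.8 CPM. The netrin receptor genes *Dcc* and *Unc5c* and the Slit receptor gene *Robo1* overlapped, with log2 fold changes of 0.08, 0.09 and -0.19.

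Wnt receptors and effectors were examined because the mutation concerns the secretion of Wnts. Of 36 genes 23 were abundant enough to be tested, which left out 9 of 10 frizzled receptor genes. Both mutants were higher for 9 and lower for 4, with a median of 0.17. *Apc*, of the destruction complex of beta-catenin, was at 271 and 273 CPM against 248 and 233 CPM, *Gsk3b* at 161 and 148 against 219.97 and 157 CPM and the coreceptor gene *Lrp6* at 97.3 and 81.3 against 83.9 and 71.2 CPM. *Axin2*, a target of beta-catenin signaling, was at 10.9 and 10.1 CPM in mutants and 7.37 and 8.02 CPM in controls (log2 fold change 0.43, SE 0.26, adjusted p = 0.545 by the quasi-likelihood test of edgeR, Benjamini-Hochberg adjusted). *Apc* and *Axin2* were without overlap and *Gsk3b* and *Lrp6* overlapped, and none of the 4 passed the test.

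Immediate early genes, which neurons transcribe after activity, were lower in both mutants for 12 of the 21 genes tested and higher for 0, with a median of -0.59. *Arc* was at 15.1 and 11.7 CPM in mutants and 57.2 and 21.6 CPM in controls and was called by DESeq2. *Bdnf*, the gene of a neurotrophin, was at 47.3 and 35.0 CPM against 71.1 and 64.3 CPM. *Homer1* (174 and 125 against 351 and 165 CPM) and *Nr4a3* (71.8 and 56.1 against 82.7 and 70.5 CPM) overlapped, and control replicate 1 was the highest mouse for *Arc*, *Bdnf*, *Homer1* and *Nr4a3*. Without control replicate 1 the log2 fold change of *Arc* was -0.76 instead of -1.58.

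Of 15 genes of GABA receptors and their anchor, 7 were higher in both mutants and 1 lower, with a median of 0.28. *Gabrb1* was at 1481 and 1284 CPM against 1177 and 1011 CPM, while *Gphn*, the gene of gephyrin, overlapped. Of 30 genes of channels that set excitability, 14 were higher and 3 lower, with a median of 0.17. *Kcnq5*, a potassium channel gene, was at 4150 and 3218 CPM against 2913 and 2686 CPM (log2 fold change 0.40, SE 0.17), *Cacna1c* had a log2 fold change of 0.30 (SE 0.17) and *Kcnd2* overlapped. Of 20 transcription factor genes 6 were higher and 7 lower, and *Zbtb20*, *Tcf4* and *Bcl11a*, the most abundant, differed by -0.04, 0.00 and -0.02 on the log2 scale. DESeq2 called *Etv1* (78.8 and 61.0 against 23.5 and 40.3 CPM) and *Tshz2* (71.1 and 39.3 against 23.9 and 27.5 CPM). Of 17 other genes named for CA3, 4 were higher and 4 lower, the RNA-binding protein gene *Elavl2* overlapped (log2 fold change -0.07), and DESeq2 called *St18* (165 and 172 against 62.0 and 103 CPM). *Mafa*, a transcription factor gene, was in 0 of 365 and 4 of 1085 mutant and 3 of 467 and 18 of 558 control nuclei, too few UMIs to be tested.

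None of the 10 genes above the next type by a ratio above 1.5 in CA3 nuclei was lower in both mutants in bulk RNAseq. All 10 were measured, and the quasi-likelihood test of edgeR, Benjamini-Hochberg adjusted, called 0 of them at FDR below 0.05 and FC above 3, where it called 4 of 20687 genes higher (0.0193%) and 41 lower (0.198%). DESeq2 also called 0 at these limits. Its adjusted p was 0.000433 for *Lpl* and 0.0377 for *Raver2*, both higher in mutants with FC under 3. At an unadjusted p below 0.05 edgeR had 3 higher and 0 lower. Both mutants were above both controls for 5 of the 10 and below for 0, where 25.8% of all genes were above and 25.4% below. The median log2 fold change was 0.28, beside 0.01 over all genes, but it was 0.16 without mutant replicate 1, 0.17 without control replicate 2 and 0.15 for the 4 genes with a ratio above 2. Where a lower ratio gave 19 measured genes it was 0.045, and of these *Madd*, *Tead1*, *Rapgef2* and *Mri1* were lower in both mutants (log2 fold changes of -0.09, -0.14, -0.11 and -0.36). In bulk tissue, fewer cells of a type and less RNA per cell cannot be told apart. Bulk libraries also hold the RNA of DGCs, which were few in the mutants. The paper proposes that their loss slightly raises the relative share of all other cell types. A rise through this shift and a rise within CA3 cells cannot be told apart here.

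*Lpl* was at 166 and 220.4 CPM in mutant and 131 and 128 CPM in control bulk libraries (log2 fold change 0.57, SE 0.13), without overlap. *Raver2* was at 69.0 and 73.1 CPM against 54.9 and 61.6 CPM (0.29, SE 0.07) and *Socs2* at 32.0 and 28.7 against 25.98 and 24.04 CPM (0.28, SE 0.09), both again without overlap. *4921511C10Rik* (0.40) and *9530036O11Rik* (0.34) had fewer than 2 CPM in every library. *Nectin3* and *Grik4* overlapped, at 52.1 and 50.6 against 51.7 and 52.9 CPM and at 82.99 and 67.3 against 78.2 and 70.9 CPM, with log2 fold changes of -0.03 and 0.01. *Lpl* is transcribed by several cell types of the brain, and its CA3 level (102 and 74.1 CPM in mutants, 117 and 65.3 CPM in controls) did not separate the genotypes. *Mafa*, too sparse in nuclei to enter the 10, was at 0.476 and 0.214 CPM in mutant and 1.01 and 1.21 CPM in control bulk libraries, lower in both mutants (log2 fold change -1.71, SE 0.45, adjusted p = 0.147 by the quasi-likelihood test of edgeR, Benjamini-Hochberg adjusted).

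Since the bulk libraries numbered 2 had female levels of *Xist*, the ratios were also taken within each replicate number, as 1 mouse against 1. The median of the 10 genes was 0.27 with 9 higher in replicate 1 and 0.23 with 8 higher in replicate 2. Within CA3 nuclei the same 10 genes had a median of -0.14, with 1 higher and 3 lower in both mutants, near the 22.4% and 21.8% of all genes.

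The ends of the CA3 axis were also looked up in bulk RNAseq. Of the *Sema5b* end 19 genes were measured, 9 lower and 5 higher in both mutants, with a median of -0.16, and of the *Gabrg3* end 20 genes, 7 lower and 9 higher, with a median of 0.03, where 25.4% of all genes were lower and 25.8% higher. Within replicate numbers 1 and 2 the medians were -0.11 and -0.13 and 0.04 and -0.08. *Sema5b* itself had a bulk log2 fold change of -0.87, *Rph3a* one of -0.43 and *Fstl4* one of -0.62, each lower in both mutants, whereas *Gabrg3* had 0.21 and *Dab1* -0.13. *Sema5b* was at 14.3 and 13.9 CPM in mutant and 26.8 and 24.7 CPM in control bulk libraries and had an adjusted p of 0.0282 by the quasi-likelihood test of edgeR, Benjamini-Hochberg adjusted, with FC under 3. Oligodendrocyte precursors and excitatory neurons 13 had more *Sema5b* than CA3 in every mouse, and in neither was it lower in both mutants. The parts of CA3, of the DGCs, which were few in the mutants, and of other types in the bulk differences of *Sema5b*, *Rph3a* and *Fstl4* were not tested. They cannot be told apart in bulk tissue.

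**Figure D5:**
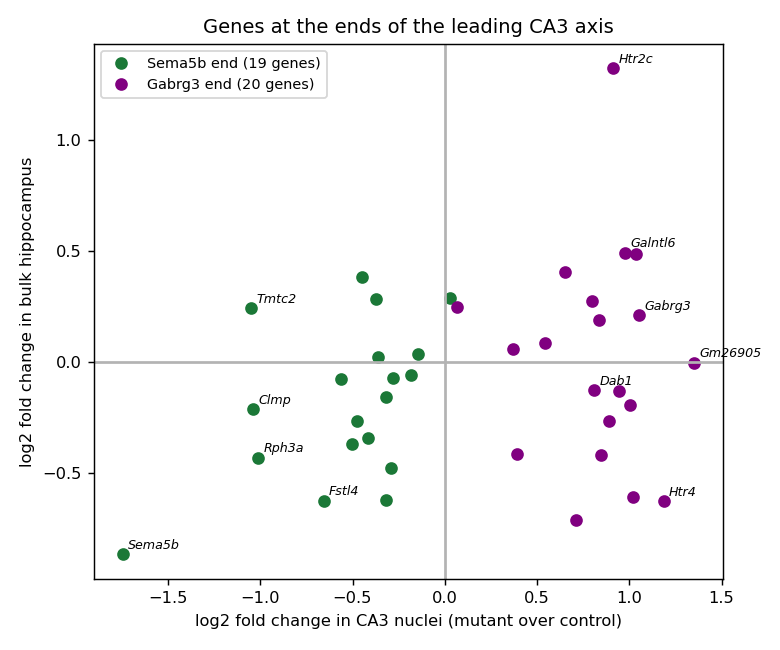
Log2 fold change (mutant over control) of 39 genes at the ends of the leading CA3 axis, in CA3 nuclei (x axis) and in bulk hippocampus (y axis), with 1 point per gene (green the *Sema5b* end, purple the *Gabrg3* end). In nuclei the ends lie left and right of 0, save 1 *Sema5b*-end gene at 0.03, and in bulk RNAseq both ends spread around 0, with medians of -0.16 and 0.03.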

How the data were processed

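Per the study's methods, Cell Ranger 3.1.0 and an mm10 index that includes introns were used for snRNAseq. The authors deposited raw UMI counts per gene and nucleus, and a cell type for every nucleus from their own clustering after batch correction. For bulk RNAseq the authors deposited the expected count of each gene from RSEM 1.3.0 with Bowtie2 2.2.9, which splits reads that match more than one gene. These were rounded, and the libraries held between 56002302 and 79576119 of them. All values of nuclei come from the deposited counts.

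UMI counts were summed per mouse and cell type, and the mouse was the replicate. Genes were filtered with filterByExpr, scaled by TMM and compared with edgeR's quasi-likelihood test (edgeR 4.0.16, limma 3.58.1, R 4.3.3) with Benjamini-Hochberg adjustment, at FC above 2 (nuclei) or 3 (bulk) and FDR below 0.05. DESeq2 1.42.0 was an alternative, and an adjusted p that it does not give was left out. Sensitivity fits changed 1 choice at a time. The SE was taken as the absolute log2 fold change divided by the square root of F. Numbers of nuclei per type were tested with the total nuclei of a mouse as library size. For shares of nuclei with a UMI each nucleus was thinned to 1500 UMIs. All intervals cover counting error only. Scrublet (scanpy 1.11.5) ran on each library, and nuclei it marked were left out only in an alternative. Nuclei counted as holding other markers had at least 2 UMIs over them. The axis used genes with a UMI in at least 5% of the control CA3 nuclei (Python 3.11.15, scikit-learn 1.9.0, scipy 1.17.1). Positions and gene types are those of GENCODE vM21, and the scripts were tested on simulated data.

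Genes named are the CA3 markers, *Wls* and *Mafa*, the 3 most abundant of each list, the 5 of lowest p in each direction, for interactions the 5 largest passing in each direction with more than 3 UMIs in each type and genotype, and for the description the genes with the largest ratio to the next type. Members called by DESeq2, genes of the axis and *Axin2* were named after their values were seen. Some genes that these rules name are not reported here. The members and gene lists were chosen with earlier results of these data known. The authors' regression over nuclei and EBSeq were not run.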

Additional observations from a re-analysis of the deposited data

Results flagged for a closer look

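Each difference here was larger or smaller in CA3 nuclei than in another type of the same mice, by the test of the interaction itself, and is given as the log2 genotype difference in CA3 minus that in the other type. Against CA1, 5 genes were positive and 13 negative, among them *Tspan18* at 1.71, *Bcl2* at 1.20, *Gm2164* at 1.20, *Car2* at 1.17 and *Gm26905* at 1.12, and *Ptpn14* at -2.27, *Cpne9* at -1.81, *Sema5b* at -1.76 and *Camk2d* at -1.41. Against CA2, 11 were positive and 5 negative, the largest being *Armc3* at 2.55, *Btk* at 2.29, *Stxbp6* at 1.89, *Trpm3* at 1.77 and *Gm32647* at 1.497, and *Prex1* at -2.84, *Tmtc2* at -2.38, *Erbb4* at -2.01, *Slit2* at -1.34 and *4921539H07Rik* at -1.14. Against mossy cells, 45 were positive and 35 negative, the largest being *Btk* at 3.61, *Gm45341* at 3.42, *Plch1* at 3.24, *Gm16161* at 2.98 and *Osbpl3* at 2.79, and *Simc1* at -3.32, *Sema5b* at -3.27, *Dock10* at -3.22, *Neat1* at -3.09 and *Slc4a4* at -2.59. Of the 18, 16 and 80 calls, 3, 3 and 9 passed with each library left out in turn, and what sets mutant replicate 2 apart was not tested.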

How the results depend on the processing

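With 2 mice of each genotype, the number of calls moved with most choices, and the cause was not tested. In CA3 nuclei, where edgeR called none, DESeq2 called 40 genes higher and 45 lower, no filter on low counts gave 151 and 126, thinned nuclei 5 and 5, and leaving out 1 library 17 to 443 and 18 to 182. RLE scaling, no limit on FC and, among alternatives chosen after seeing the data, nuclei without CA1 markers again gave 0 and 0. Without nuclei marked by Scrublet, and without nuclei with markers of other types, 0 were higher and 4 lower. Interactions with CA1 numbered 11 positive and 8 negative in DESeq2, 51 and 66 with no filter, 21 positive with no limit on FC, and 7 to 77 and 4 to 57 with 1 library left out. Those with CA2 numbered 4 and 0, 28 and 29, 18 and 11, and 13 to 32 and 9 to 25 in the same order, and those with mossy cells 9 and 7 in DESeq2 and 12 to 57 and 16 to 53 with 1 library left out.

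The log2 fold change of the CA3 proportion was -0.30 without DGCs in the total, -0.25 among CA1, CA2 and CA3 and -0.33 with TMM scaling, and -0.12 to 0.47 with 1 library left out. The bulk median of the genes highest in CA3 was 0.15 for genes with a ratio above 2 to the next type, 0.045 where a lower ratio gave 19 genes, 0.23 within replicate number 2 (chosen after seeing the data) and 0.16 to 0.21 with 1 library left out.

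Genes near 0 changed sign. After thinning *Elavl2* was at 0.012, and *Tcf4* was at -0.00358 with RLE, -0.00357 in DESeq2, -0.027 with no filter, -0.00775 without nuclei marked by Scrublet and -0.00666 without nuclei with markers of other types. With 1 library left out the log2 fold change spanned -0.27 to 0.15 for *Grik4*, -0.022 to 0.46 for *Grik2*, -0.19 to 0.51 for *Gria2*, -0.086 to 0.18 for *Grin1*, -0.16 to 0.011 for *Grm7*, -0.11 to 0.21 for *Dlgap1*, -0.00771 to 0.11 for *Dlgap2*, -0.24 to 0.060 for *Nrxn3*, -0.18 to 0.37 for *Dcc* and -0.00263 to 0.17 for *Unc5c*. It spanned -0.41 to 0.053 for *Robo1*, -0.30 to 0.14 for *Gphn*, -0.27 to 0.066 for *Kcnd2*, -0.050 to 0.033 for *Tcf4*, -0.25 to 0.24 for *Bcl11a* and, against mossy cells, -0.045 to 4.24 for *Gm16161*.

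With the replicate number as a replicate block, edgeR's quasi-likelihood test called 196 genes higher and 111 lower in CA3 nuclei, and interactions numbered 25 positive and 24 negative with CA1, 40 and 26 with CA2 and 56 and 50 with mossy cells. Under the same block the CA3 proportion had a log2 fold change of 0.18 and the bulk median was 0.28. Deviations of same-numbered mice from their genotype's mean correlated at 0.464 over 6652 genes, but there are only 2 pairs and no label says that a number marks a shared batch, so the pairing is not established.

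The 365 CA3 nuclei of mutant replicate 1 and the 27 to 89 mossy nuclei limit the precision, and genes under the filter on low counts, such as *Mafa*, were not testable at this depth.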
